A study of Mus musculus with 8 samples.

Results

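The genes described here are 6 markers of the LAMP5 class of cortical interneurons, which contains the neurogliaform cells: Lamp5, Ndnf, Reln, Id2, Sv2c and Cplx3. They were taken by symbol, and all 6 were found among the 55341 gene symbols of the count tables. RNA was measured in sorted nuclei of cortical GABAergic neurons, 1 library per mouse, from 8 juvenile mice that were all hypothyroid because their mothers received propylthiouracil (PTU), a blocker of thyroid hormone synthesis, during gestation. In all of them a Cre-dependent transgene gave GABAergic neurons a fluorescent nuclear protein, which the sorter used. The PTU group (mice 9 to 12, n = 4) had no further treatment in the labels, and mice 13 to 16 (PTU+TH, n = 4) received thyroid hormone (TH) by injection into the peritoneal cavity 24 h before the brain was collected. The series has no euthyroid mice, so the comparison is of hypothyroid mice with and without a day of hormone. The Cre driver, the hormone dose and the age in days are not given in the sources used here. Because every GABAergic class was sorted together, a level is an average over the classes, and fewer cells of a class and less RNA per cell cannot be told apart.

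Neurogliaform cells are inhibitory neurons with a small, very dense axon that release GABA into the surrounding volume and act slowly on many neighbours, largely in the upper cortex. Most arise in the caudal ganglionic eminence or the preoptic area of the embryo, together with the VIP class, and their delta-containing GABA-A receptors respond to low ambient GABA. The class is recognised by combinations of genes, since most of its markers are shared with some other cell. LAMP5 is a lysosome-associated membrane protein of synaptic vesicles, NDNF is a secreted factor of layer 1 cells, and reelin is a large secreted glycoprotein that SST interneurons and Cajal-Retzius cells also make. ID2 is a helix-loop-helix protein without a DNA-binding region that holds E proteins inactive. SV2C is a vesicle glycoprotein, and complexin 3, encoded by Cplx3, binds the SNARE complex that drives vesicle fusion and is also made by excitatory neurons of layer 6b.

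Start-site windows of a pair of members are shown, Cplx3 and Lamp5, whose ratio did not overlap between the groups. The pair was chosen after the values were seen, from 6 such ratios among 15. The adjusted p of that ratio, 0.0714 (exact permutation), did not pass. The 250 bases before the annotated start and the 50 after it are printed 5′ to 3′ on the gene's strand, from RefSeq on GRCm38.p6. Capitals mark the thyroid hormone receptor half-site AGGTCA, searched on both strands, which also covers TGACCT.
Cplx3, chr9:57606232-57606531, minus strand: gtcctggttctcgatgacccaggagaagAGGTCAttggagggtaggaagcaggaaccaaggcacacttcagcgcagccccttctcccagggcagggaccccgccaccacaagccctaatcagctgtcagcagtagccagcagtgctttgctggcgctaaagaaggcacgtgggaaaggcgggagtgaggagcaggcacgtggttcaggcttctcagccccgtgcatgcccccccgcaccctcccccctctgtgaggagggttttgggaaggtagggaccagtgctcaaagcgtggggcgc
Lamp5, chr2:136052089-136052388, plus strand: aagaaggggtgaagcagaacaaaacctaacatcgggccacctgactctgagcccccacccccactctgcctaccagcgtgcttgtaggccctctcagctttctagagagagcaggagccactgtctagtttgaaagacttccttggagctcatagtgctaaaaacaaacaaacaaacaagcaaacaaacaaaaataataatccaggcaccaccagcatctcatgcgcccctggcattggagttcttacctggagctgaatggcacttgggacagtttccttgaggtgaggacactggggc
The Cplx3 window held 1 match, at position -222 from the start. The windows of Lamp5 (both of its starts), Reln, Id2 and Sv2c held 0, and Ndnf had no entry, so 5 of 6 members were matched. Of 32851 windows of this kind in the table, 5340 (16.3%) held the half-site. A match is a description of letters only.

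Libraries held 21.8 to 29.1 M counts. Counts of 4 genes of the Y chromosome summed to 0 counts in PTU+TH mice 15 and 16 and to between 7960 and 11548 in the other 6. Libraries also differed in the balance of long and short genes. Against its own mean over the 8 libraries, the median log2 CPM of 2605 genes with bodies of at least 100 kb stood at -0.25 and -0.09 in PTU mice 9 and 10 and at 0.20 and 0.12 in PTU mice 11 and 12. In PTU+TH mice 13 to 16 it stood at -0.05, -0.05, 0.03 and 0.15. For 4894 genes under 10 kb the same measure was 0.18 and 0.03 in PTU mice 9 and 10 and -0.11 and -0.10 in mice 11 and 12. In PTU+TH mice 13 to 16 it was 0.06, 0.02, 0.08 and -0.06, so in mouse 15 both medians lay above 0.

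Levels are given as CPM, the count of a gene relative to the TMM-scaled total of its library. None of the 6 members was called different between PTU+TH and PTU (0 of 6 at an edgeR quasi-likelihood adjusted p under 0.05), where 2.12% of the 17355 genes tested were called. At an unadjusted p under 0.05 there was 1 of 6, Ndnf, against 12.8% of all genes. In 0 of 6 members did the groups not overlap, against 8.71% of all genes. The values of 4 members were lower and those of 2 were higher in PTU+TH, with a median log2 fold change of -0.09, beside -0.01 over all genes tested. The lowest was Ndnf at -0.75 and the highest Cplx3 at 0.69.

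**Figure D1:**
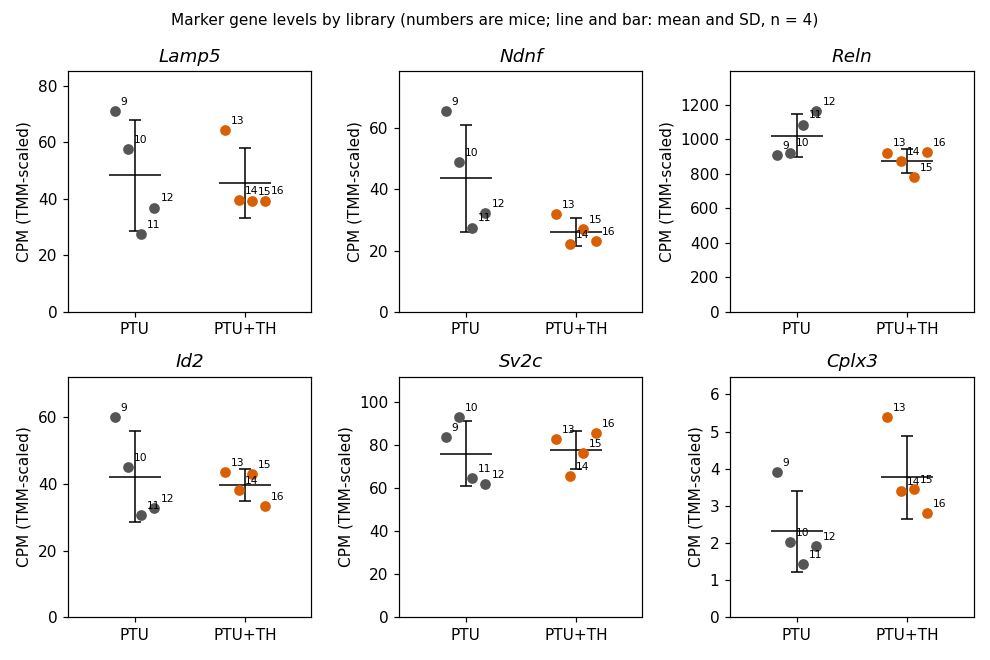
TMM-scaled CPM of the 6 marker genes in each library, with mouse numbers beside the points and the mean and SD of 4 libraries as line and bar. The groups overlap in all 6 panels, PTU mouse 9 is highest of its group for Lamp5, Ndnf, Id2 and Cplx3, and Lamp5 in PTU+TH mouse 13 (64.3 CPM) sits above the other 3 (39.1 to 39.5 CPM).

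Lamp5 (chromosome 2, 136052239 to 136069917, GRCm38, 6 exon blocks) stood at 71.2, 57.7, 27.6 and 36.9 CPM in PTU mice 9 to 12 and at 64.3, 39.5, 39.1 and 39.4 CPM in PTU+TH mice 13 to 16. Mice 9, 10 and 13 were high, and the groups overlapped throughout. The means were 48.3 ± 19.7 and 45.5 ± 12.5 CPM (SD, 4 libraries per group), a log2 fold change of -0.09 with an edgeR adjusted p of 0.958. Its 95% interval, from -0.73 to 0.55, leaves room for a change of up to 0.604-fold or 1.46-fold. The spread within PTU, 2.58-fold from lowest to highest mouse, was larger than the difference between the group means.

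Ndnf (chromosome 6, 65671590 to 65712326) stood at 65.7, 49.0, 27.5 and 32.2 CPM in PTU mice 9 to 12 and at 32.0, 22.1, 26.9 and 23.1 CPM in PTU+TH mice 13 to 16. The ranges overlapped only through PTU mouse 11 and PTU+TH mouse 13. Means were 43.6 ± 17.4 and 26.1 ± 4.49 CPM (SD, 4 libraries each). The log2 fold change of -0.75 (SE 0.25, 95% interval -1.30 to -0.19) had an unadjusted p of 0.0139 and an adjusted p of 0.215 in edgeR, so it was not called. DESeq2 gave an adjusted p of 0.0413, with 3.88% of its genes called. Without PTU mouse 9, the highest library, the log2 fold change was -0.47 (edgeR adjusted p = 0.238), and without PTU mouse 11 it was -0.91 (edgeR adjusted p = 0.0773).

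Reln (chromosome 5, 21884454 to 22344702), the longest member, ran the other way across the PTU mice. It stood at 909, 923, 1086 and 1165 CPM in PTU mice 9 to 12 and at 923, 873, 779 and 925 CPM in PTU+TH mice 13 to 16. Mice 11 and 12 were high, and PTU mice 9 and 10 lay within the range of PTU+TH. The means of 1021 ± 125 and 875 ± 68.5 CPM (SD, 4 libraries per group) gave a log2 fold change of -0.22 (95% interval -0.54 to 0.09, edgeR adjusted p = 0.605). Pseudogenes and gene models lie inside Reln, and 89.2% of its exonic bases are free of other genes.

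Id2 (chromosome 12, 25093799 to 25097140), the shortest member, stood at 60.1, 45.0, 30.7 and 32.8 CPM in PTU mice 9 to 12 and at 43.6, 38.2, 43.0 and 33.4 CPM in PTU+TH mice 13 to 16. All PTU+TH values lay inside the PTU range. The log2 fold change was -0.09 (95% interval -0.51 to 0.32) with an edgeR adjusted p of 0.92.

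Both remaining members encode proteins of vesicle release. Sv2c (chromosome 13, 95954594 to 96132577) stood at 84.0, 93.3, 64.6 and 62.1 CPM in PTU mice 9 to 12 and at 83.0, 65.9, 76.2 and 85.8 CPM in PTU+TH mice 13 to 16, again wholly inside the PTU range. It had the narrowest interval of the 6, -0.26 to 0.32 around a log2 fold change of 0.03 (edgeR adjusted p = 0.97), which bounds a change to between 0.835-fold and 1.25-fold. Cplx3 (chromosome 9, 57599992 to 57606281) had few reads, with 107, 54, 29 and 44 counts in PTU mice 9 to 12 and 128, 99, 76 and 59 in PTU+TH mice 13 to 16. That is 3.90, 2.03, 1.43 and 1.92 CPM against 5.40, 3.40, 3.45 and 2.81 CPM. PTU mouse 9 alone reached into the PTU+TH range, and the other 3 PTU mice lay below all 4 PTU+TH mice. The means were 2.32 ± 1.08 and 3.77 ± 1.13 CPM (SD, 4 libraries per group), 1.61-fold higher with a 95% interval of 0.999 to 2.59, an unadjusted p of 0.0503 and an edgeR adjusted p of 0.392. Without PTU mouse 9 the log2 fold change was 1.07 (edgeR adjusted p = 0.0684).

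Per kilobase of exon, averaged over 8 libraries, the level was highest for Reln (39.9 ± 5.13 CPM per kb), followed by Id2 (16.8 ± 3.89) and Lamp5 (16.0 ± 5.24), Sv2c (7.92 ± 1.19), Ndnf (3.44 ± 1.49) and Cplx3 (1.03 ± 0.434; SD, n = 8). The difference between Id2 and Lamp5 was within their spread, and the ranges of Lamp5 and Sv2c and of Sv2c and Ndnf touched. Nuclear RNA holds introns, and whether intron reads were counted is not given in the sources used here. Per kilobase of gene body the order was Id2 (12.2 ± 2.84 CPM per kb), Lamp5 (2.65 ± 0.869), Reln (2.06 ± 0.265), Ndnf (0.855 ± 0.369), Cplx3 (0.484 ± 0.204) and Sv2c (0.432 ± 0.0647; SD, n = 8). In that order the ranges of Lamp5 and Reln overlapped, those of Lamp5 and Ndnf touched, and that of Cplx3 overlapped those of Ndnf and Sv2c. Reln was therefore first by exon length and behind Id2 and Lamp5 by gene body.

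Some of the members varied together from mouse to mouse. After the group mean of log2 CPM was removed, the 6 pairs of Lamp5, Ndnf, Id2 and Cplx3 had Pearson's r between 0.88 and 0.96 over 8 libraries and Spearman's rho between 0.81 and 0.95. The permutation p-values of r, adjusted by Benjamini-Hochberg over all 15 pairs of members, were between 0.00223 and 0.00955 for these 6 pairs. All 40320 orders of the 8 centred values were used, across both groups. Values centred within groups of unlike spread are not freely exchangeable, so these p-values are approximate. Other genes also reach such values in these libraries. Of the 17354 other genes tested, 1.54% had an r of at least 0.88 with Lamp5, 2.15% with Ndnf, 2.93% with Id2 and 1.00% with Cplx3, and 1.39% of all pairs of tested genes did. The adjusted p-values of rho (the same permutation) were 0.0137 for 5 of the 6 pairs and 0.0544 for Lamp5 with Cplx3. Without the 2 libraries farthest from the median, r was between 0.61 and 0.92, and 0 of the 15 pairs passed the adjusted test. Among the 6 pairs r was then highest for Lamp5 with Ndnf (0.92) and Ndnf with Id2 (0.89), and lowest for Id2 with Cplx3 (0.61). The loss of those libraries and the smaller number of libraries cannot be told apart. PTU mouse 9 was among the 2 left out for each of the 6 pairs.

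Sv2c followed the other 4 more loosely. Its r was 0.73 with Lamp5 and 0.75 with Ndnf (permutation, adjusted p = 0.0745 and 0.0624), 0.62 with Id2 and 0.42 with Cplx3. Reln went against all 5, with r from -0.79 to -0.40. Of its pairs 1 passed, that with Id2 (r = -0.79, rho = -0.79, permutation adjusted p = 0.0401 and 0.0598). In PTU the order of mice 9, 10, 12 and 11 from high to low was shared by Lamp5, Ndnf, Id2 and Cplx3. The same libraries differ in the balance of long and short genes given above, where mouse 9 was lowest and mouse 11 highest for long genes. Reln spans 460 kb and Sv2c 178 kb, while Ndnf, Lamp5, Cplx3 and Id2 span 40.7, 17.7, 6.29 and 3.34 kb. The part of that balance in the shared movement was not tested.

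**Figure D2:**
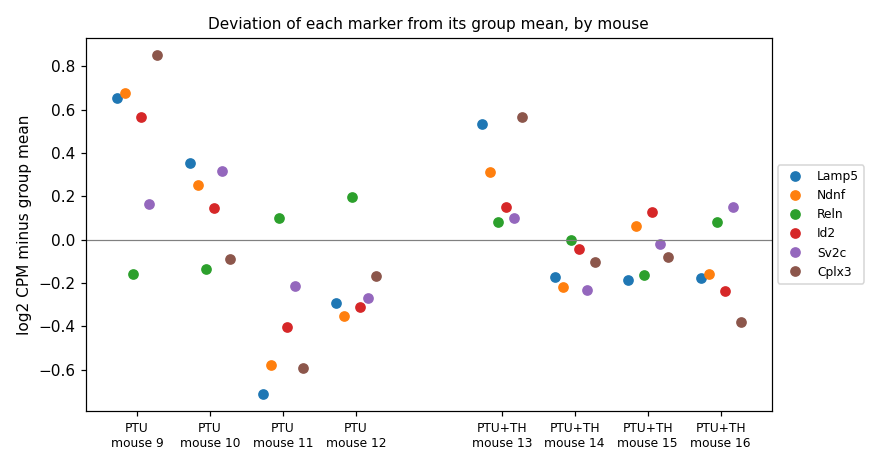
Log2 CPM of each marker gene minus the mean of its group, by mouse, with 1 colour per gene and positions shifted sideways for legibility. Lamp5, Ndnf, Id2 and Cplx3 are all above 0 in mice 9 and 13 and all below 0 in mice 11, 12, 14 and 16, while Reln lies below 0 in mice 9 and 10 and above it in mice 11 and 12.

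Because Lamp5, Ndnf, Id2 and Cplx3 shared much of their spread, their levels relative to each other within a library were compared, a choice made after the values were seen. A ratio within a library does not depend on how the libraries are scaled. The ratio of Ndnf to Lamp5 was 0.923, 0.849, 0.995 and 0.874 in PTU mice 9 to 12 and 0.499, 0.560, 0.690 and 0.588 in PTU+TH mice 13 to 16. All 4 PTU mice lay above all 4 PTU+TH mice, with means of 0.910 ± 0.0641 and 0.584 ± 0.0795 (SD, 4 libraries per group). The ratio of Cplx3 to Lamp5 went the opposite way, from 0.0548, 0.0352, 0.0520 and 0.0522 in PTU to 0.0840, 0.0862, 0.0884 and 0.0713 in PTU+TH, again without overlap. Among all other tested genes, 1.04% had a ratio to Lamp5 whose groups did not overlap. Seen from the other side of these ratios, the share was 17.9% for ratios to Ndnf and 7.47% for ratios to Cplx3.

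Id2, Sv2c and Reln kept overlapping ratios to Lamp5. Means in PTU and PTU+TH were 0.907 ± 0.143 and 0.898 ± 0.18 for Id2, 1.71 ± 0.478 and 1.77 ± 0.383 for Sv2c, and 24.9 ± 12.6 and 20.0 ± 4.02 for Reln (SD, 4 libraries per group). The widest separation was that of Cplx3 to Ndnf, at 0.0593, 0.0415, 0.0523 and 0.0597 in PTU mice 9 to 12 and 0.168, 0.154, 0.128 and 0.121 in PTU+TH mice 13 to 16, 2.69-fold higher. Of the 15 ratios between members 6 did not overlap, and each of the 6 held Ndnf or Cplx3. The further ones were Ndnf to Id2, Ndnf to Sv2c and Cplx3 to Id2, where the background over all genes was 2.85% for ratios to Id2, 3.66% for ratios to Sv2c and 17.9% for ratios to Ndnf, the denominator with the most such genes. It was 7.47% for ratios to Cplx3. Each of the 6 had an exact permutation p of 0.0286 (two-sided), the smallest that 70 arrangements allow, and 0.0714 after Benjamini-Hochberg adjustment over the 15, which does not pass.

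**Figure D3:**
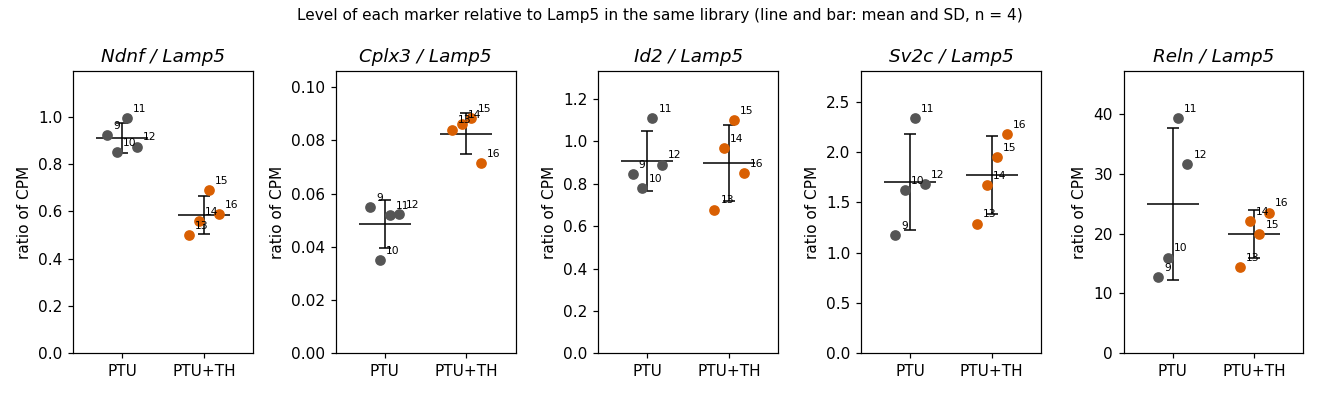
CPM of 5 marker genes divided by the CPM of Lamp5 in the same library, with mouse numbers beside the points and the mean and SD of 4 libraries as line and bar. Ndnf to Lamp5 is lower in all 4 PTU+TH mice (0.499 to 0.690) than in all 4 PTU mice (0.849 to 0.995), Cplx3 to Lamp5 is higher in all 4, and the ratios of Id2, Sv2c and Reln overlap.

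Log2 CPM of Lamp5 was also added as a covariate to the fit across all genes, after the ratios had been seen, so its values for Ndnf and Cplx3 restate those ratios and are no separate support. Ndnf was called lower in that fit (log2 fold change -0.65, edgeR adjusted p = 0.00159), and Cplx3 was not called (0.77, adjusted p = 0.0839), with 4.36% of genes called in that fit. With the difference between long and short genes as the covariate, likewise added after seeing the data, Ndnf was also called lower (-0.67, edgeR adjusted p = 0.00204), and Cplx3 was not (0.76, adjusted p = 0.0731), with 5.97% of genes called. Lamp5, Id2, Sv2c and Reln were called in neither, Lamp5 having no value in the first. When mice 15 and 16, which had no Y-linked counts, were left out, the log2 fold changes were -0.69 for Ndnf and 0.91 for Cplx3 (edgeR adjusted p = 0.635 and 0.572).

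Of 14 other genes of the class, 13 were tested, 1 was called higher and 0 lower, where 1.49% and 0.634% of all genes were called in these directions. The median log2 fold change of the 13 was 0.03. The groups did not overlap in 2, Gabrd and Plch2, beside 8.71% of all genes. At an unadjusted edgeR p under 0.05 there were 4, Gabrd, Plch2, Dock5 and Npy, beside 12.8% of all genes. Plch2 stood at 179 to 203 CPM in PTU and 215 to 251 CPM in PTU+TH without a call (0.29, edgeR adjusted p = 0.18). The called gene was Gabrd (chromosome 4, 155384980 to 155398112), whose product is the GABA-A receptor subunit that makes receptors sensitive to ambient GABA. Gabrd rose from 39.3, 43.1, 31.0 and 35.1 CPM in PTU mice 9 to 12 to 97.3, 106, 98.8 and 89.7 CPM in PTU+TH mice 13 to 16, and it is also expressed in other classes. Its log2 fold change was 1.40 (95% interval 1.17 to 1.63, edgeR adjusted p = 1.67e-05). Npy, a peptide of most neurogliaform cells and many SST cells, stood at 92.1 ± 29.6 and 128 ± 8.93 CPM without passing (log2 fold change 0.47, edgeR adjusted p = 0.304). Kit, a receptor tyrosine kinase of the class, stood at 117 ± 35.1 and 113 ± 15.7 CPM (SD, 4 libraries each), with PTU mice 9 and 10 high as for Lamp5. The class genes differed in this. Within PTU, mice 9 and 10 were also the highest for Npy, Npy2r, Lsp1 and Gabrd. They were the lowest for Nos1, Actn2 and Plch2, and the other tested genes of the list were mixed. Pax6, a transcription factor that marks a subset of the class, had the lowest log2 fold change of the 13 at -0.41 (edgeR adjusted p = 0.408). Tmem182 had at most 17 counts in a library and was not tested.

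**Figure D4:**
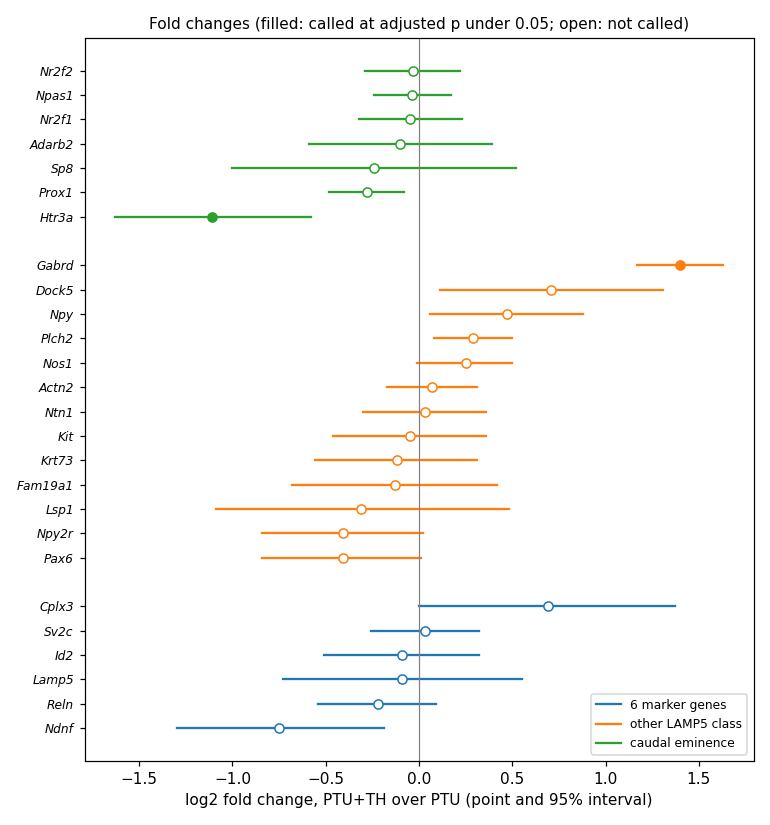
Log2 fold change of PTU+TH over PTU with its 95% interval for the 6 marker genes, the 13 tested other genes of the LAMP5 class and 7 genes of the caudal ganglionic eminence lineage. Filled points were called at an edgeR adjusted p under 0.05: Gabrd at 1.40 and Htr3a at -1.11, with all 6 marker genes open.

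All 7 genes of the caudal eminence lineage had values below 0 (median log2 fold change -0.10), where 48.6% of all genes tested had values above it. Of the 7, 1 was called lower, beside 0.634% of all genes, and the groups did not overlap in 2, Htr3a and Prox1, beside 8.71% of all genes. Htr3a, the ionotropic serotonin receptor subunit found in VIP and many LAMP5 cells, fell from 11.4, 6.81, 6.83 and 6.25 CPM in PTU mice 9 to 12 to 4.64, 3.27, 2.59 and 4.05 CPM in PTU+TH mice 13 to 16 (log2 fold change -1.11, edgeR adjusted p = 0.0344). The call was lost under 8 of 18 alternatives, in which the log2 fold change lay between -1.17 and -0.86. It was -0.86 without PTU mouse 9 (edgeR adjusted p = 0.0546), -1.17 without PTU mouse 10 (0.0578), -1.06, -0.98 and -1.16 without PTU+TH mice 14, 15 and 16 in turn (0.11, 0.116 and 0.0814) and -0.99 without both mice 15 and 16 (0.334). Other genes cover most of the exonic bases of Htr3a (25.1% free). Prox1, a transcription factor of caudally derived interneurons named after its values were seen, stood at 66.6, 69.4, 64.9 and 67.8 CPM in PTU mice 9 to 12 and at 59.5, 47.8, 53.1 and 61.0 CPM in PTU+TH mice 13 to 16, without a call (-0.28, edgeR adjusted p = 0.179). Nr2f2, another such factor, was nearest to 0 at -0.03.

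Partners and paralogs of the members had 0 calls, where 2.12% of all genes were called, a share at which lists this short would seldom hold a call. Of 9 genes of reelin signalling, from its receptors Vldlr and Lrp8 to the adaptor Dab1 and its kinases, 0 were called, with values from -0.25 for Fyn to 0.11 for Crkl. Of 6 genes of the release machinery that complexins and SV2 proteins work with, 0 were called, from -0.12 for Snap25 to 0.10 for Vamp2. The 3 E proteins that ID2 binds lay between -0.15 for Tcf12 and -0.03 for Tcf4. Of 10 tested paralogs 0 were called, from -0.22 for Sv2b to 0.34 for Cd68, a lysosomal relative of LAMP5. Lamp3 and Cplx4 had at most 19 counts in a library and were not tested.

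Markers of cells that also express the members were measured in the same libraries. Cajal-Retzius cells, a source of Reln and Ndnf, were near 0: their 5 markers Trp73, Lhx5, Lhx1, Ebf2 and Ebf3 had at most 15 counts in any library, and 0 of 5 were tested. The 3 layer 6b markers summed to 69.5 to 107 CPM in PTU and 61.9 to 80.4 CPM in PTU+TH, most of it Moxd1 (log2 fold change -0.39), while Ccn2 was at 0.30 and 0 of 3 were called. Cplx3 was highest in mice 9 and 13. Moxd1 was at 62.6, 65.5, 102 and 105 CPM in PTU mice 9 to 12 and at 58.7, 64.7, 54.5 and 77.0 CPM in PTU+TH mice 13 to 16. Ccn2 ran the other way in PTU, at 5.86, 3.58, 3.12 and 1.71 CPM with mouse 9 highest, and stood at 4.68, 3.51, 6.36 and 3.09 CPM in PTU+TH. With the long-gene covariate Moxd1 was called lower (-0.36, edgeR adjusted p = 0.0226). The 7 excitatory markers summed to 107, 99.9, 55.4 and 37.1 CPM in PTU mice 9 to 12 and to 94.7, 45.7, 120 and 61.4 CPM in PTU+TH mice 13 to 16, led by Slc17a7, and 0 of 7 were at 0 in all libraries. Lamp5, which upper-layer excitatory neurons also make, was likewise high in mice 9, 10 and 13 but not in mouse 15. The part of these cells in the members' levels was not tested. Values of the 7 lay between 0.04 for Neurod6 and 0.17 for Tbr1, with 0 called.

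In other interneuron classes, the 6 VIP class markers summed to 388, 287, 225 and 249 CPM in PTU mice 9 to 12 and to 222 to 239 CPM in PTU+TH, with 5 of 6 values below 0 and 0 called, from -0.62 for Penk to 0.06 for Crh. The highest sum was in mouse 9, as for Ndnf. Penk, which encodes an opioid peptide precursor, had an edgeR adjusted p of 0.155. It was called lower with DESeq2 (-0.62, adjusted p = 0.0478), and in edgeR with the long-gene covariate (-0.58, adjusted p = 0.0301) and without PTU mouse 12 (-0.78, adjusted p = 0.0319). In the other 15 of 18 alternatives Penk was not called, and without PTU mouse 9 it stood at -0.38 (edgeR adjusted p = 0.165). The 7 markers of classes from the medial eminence had 0 calls, from -0.09 for Sst to 0.50 for Pvalb. The 5 tested pan-GABAergic genes summed to 2448 to 2883 CPM in PTU and 2286 to 2486 CPM in PTU+TH with 0 calls, from -0.30 for Dlx6os1 to 0.33 for Slc32a1. With the long-gene covariate Dlx6os1 was called lower (-0.30, edgeR adjusted p = 0.0336). The 6 striatal markers summed to 108 to 130 and 91.6 to 115 CPM with 0 calls, the lowest value being -0.44 for Ppp1r1b.

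Glia and endothelium also make Id2, and their markers had 0 calls. Astrocyte sums were 125 to 241 CPM in PTU and 127 to 366 CPM in PTU+TH (values from -0.36 for Slc1a3 to 0.50 for Slc1a2), and oligodendrocyte lineage sums were 92.9 to 117 and 86.3 to 179 CPM (lowest value -0.17 for Pdgfra). Microglia sums were 8.88 to 13.4 and 12.9 to 26.8 CPM (from 0.40 for Csf1r to 1.09 for C1qa). Endothelial sums were 18.5 to 143 and 26.2 to 97.7 CPM (from -0.17 for Cldn5 to 0.28 for Flt1), highest in PTU mouse 10 and PTU+TH mouse 15. Gfap and P2ry12, and Dlx1 among the pan-GABAergic genes, were listed at 0 and lie wholly inside other genes. By mouse the astrocyte sums were 226, 241, 179 and 125 CPM in PTU mice 9 to 12 and 259, 127, 366 and 195 CPM in PTU+TH mice 13 to 16. Id2 was highest within each group in the 2 mice with the highest astrocyte sums, mice 9 and 10 in PTU and mice 13 and 15 in PTU+TH. In each group these mice also had the highest sums of oligodendrocyte, endothelial and excitatory markers. Microglia sums did not follow in PTU, at 13.4, 8.88, 12.5 and 9.58 CPM in mice 9 to 12. The part of any of these cells in the level of Id2 was not tested.

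Genes whose log2 CPM followed each member most closely over the 8 libraries were sought among 10618 genes with at least 5 CPM, as a description without a test. For Lamp5 these were Tefm, Men1 and Ndufv1 (Pearson's r = 0.98, 0.97 and 0.96). Ndnf was followed by Cbr4, Armcx3 and Npy1r (0.98, 0.97 and 0.97), the last a receptor for neuropeptide Y. Those nearest to Reln were Fam205c, Nhlrc2 and Plekhh1 (0.99, 0.98 and 0.98), and those nearest to Id2 were Ddost, Fasn and Mrpl32 (0.98, 0.98 and 0.97). Sv2c was followed by Card10, Zfp454 and Ndc1 (0.96, 0.96 and 0.95), and Cplx3 by Smim26, Ptma and Rpl21 (0.95 each). None of the 18 is another member or a gene of the class lists, and 8 points from shared libraries place many genes at such values.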

How the data were processed

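Nuclear RNA of sorted cortical GABAergic neurons was made into cDNA with SMART-Seq v4 and Nextera XT libraries and read single-end, per the labels' protocols. The deposited files hold raw counts per gene symbol, 1 file per library. Bowtie2 2.5.3 and mm10 (GRCm38) are named in the submitters' processing notes. The counting program, strand setting and treatment of introns are not given in the sources used here. The 55341 symbols match GENCODE M21 (GRCm38), from which positions and lengths were taken, and 0 rows named no gene. Ctgf was read as Ccn2. The labels call each library a separate mouse but give no litter or batch.

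The test was that of edgeR 4.0.16 under R 4.3.3 on the counts (filterByExpr, TMM, robust quasi-likelihood test, group as the only term), adjusted by Benjamini-Hochberg over 17355 genes. SE is the log2 fold change over the square root of F, and intervals are 95%. In data simulated for PTU+TH against PTU (17042 to 17074 genes), the test recovered 28.9% of the genes given a log2 fold change of 0.58 and 68.3% of those given 1. Log2 CPM used a prior count of 2. Correlations and ratios used exact permutations (SciPy 1.17.1), and the share of gene pairs reaching the members' r was counted after seeing the data. Alternatives were other scalings, DESeq2 1.42.0, limma 3.58.1 voom, no filter, Y-linked counts and leaving out libraries. Covariates for Lamp5 and for gene length were added after seeing the data. Members and lists were chosen with earlier results of these data known. Named were the members, called genes and extremes of each list (3 genes are not reported here), and the 3 closest genes per member. Npy, Kit, Prox1, Plch2, Dock5, Npy2r, Lsp1, Nos1, Actn2 and the ratios were named after their values were seen.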

Additional observations from a re-analysis of the deposited data

Results flagged for a closer look

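The 6 marker genes and the called, lowest and highest genes of the other lists, 38 genes in all, gave 1 set of 4 CPM values each per treatment, 76 sets in all. Npy, Kit, Prox1, the other class genes named after their values were seen and the genes closest to each marker were not among them. In these sets a library standing apart from its 3 companions was looked for. It occurred in 4 sets, and by chance about 5% of sets, or 3.8, would show it. Among the 12 sets of the 6 marker genes it occurred in 1: Lamp5 reached 64.3 CPM in PTU+TH mouse 13, with 39.1 to 39.5 CPM in its companions. That gap to the nearest library was 0.983 of the range, and Ndnf, Id2 and Cplx3 were also highest in mouse 13 within PTU+TH. PTU mouse 9 had the most Htr3a, 11.4 CPM beside 6.25 to 6.83 (0.888 of the range), and the least Pax6, 3.86 CPM beside 5.05 to 5.16 (0.916). PTU mouse 10 had 69.1 CPM of Cldn5, a tight junction gene of endothelium, beside 7.17 to 16.9 (0.843).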

How the results depend on the processing

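No paired analysis was possible because PTU (mice 9 to 12) and PTU+TH (mice 13 to 16) have no number in common. Of all genes 368 were called, against 722 with DESeq2, 132 with Y-linked counts as a covariate, 58 in the 6 libraries with Y-linked counts, 757 with the Lamp5 covariate, 1036 with the long-gene covariate and 182 to 499 when 1 library was left out. Of the 6 members 0 were called, against 1, Ndnf, with DESeq2, the Lamp5 covariate and the long-gene covariate. Of the 15 correlations between members 7 passed the approximate permutation test, 6 of them with an r of at least 0.88, which 1.39% of all pairs of tested genes reached. Those 6 are the pairs of 4 members grouped after the correlations were seen. Without the 2 libraries farthest from the median 0 passed, where fewer libraries were used. Gabrd stayed called in all 18 alternatives.

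Several small log2 fold changes changed sign, and the cause was not tested. With the Y-linked covariate and in the 6 libraries the values were 0.11 and 0.10 for Lamp5, -0.03 and -0.03 for Sv2c, -0.01 and -0.01 for Vamp2, -0.21 and -0.22 for Neurod6, -0.10 and -0.10 for Tbr1, and -0.05 and -0.06 for Flt1. With library totals only they were -0.01 for Sv2c and -0.03 for Neurod6. Cldn5 was at 0.10 with limma voom and 0.06 with the Lamp5 covariate. Leaving out 1 library gave -0.30 to 0.16 for Lamp5, -0.22 to 0.13 for Id2, -0.05 to 0.15 for Sv2c, -0.08 to 0.07 for Nr2f2, -0.06 to 0.40 for Vamp2, -0.14 to 0.08 for Tcf4 and -0.48 to 0.05 for Sv2b. It gave -0.17 to 0.00 for Sst, -0.07 to 0.29 for Crh, -0.19 to 0.38 for Neurod6, -0.09 to 0.44 for Tbr1, -0.62 to 0.05 for Pdgfra, -0.56 to 0.98 for Cldn5 and -0.17 to 1.00 for Flt1. Cplx3 had 29 to 128 counts per library, the fewest of the 6 members.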
